A study of Homo sapiens with 10 samples.

Results

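The nuclear genes of the respiratory chain were described in 2 human glioblastoma cell lines, SNB19 and U87, in which the homeobox transcription factor MEOX2 had been silenced or overexpressed. The genes were chosen by name alone, as those whose symbol starts with NDUFA, NDUFB, NDUFC, NDUFS, NDUFV, UQCR, COX4 to COX8 or ATP5 together with SDHA, SDHB, SDHC and SDHD. Assembly factors named NDUFAF, pseudogenes and hyphenated read-through names were left out, which removed 73 of 161 matching names. The rule gave 88 genes of the 34567 in the table. By symbol, 39 were counted under complex I, 4 under complex II, 9 under complex III, 16 under complex IV and 20 under complex V. The 39 include NDUFA4 and NDUFA4L2, which are named for complex I but listed as found in complex IV. All 88 had at least 1 read in some library, and 85 passed the filter on low counts. COX4I2, COX8C and ATP5MGL did not.

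Polyadenylated RNA was sequenced from 10 libraries in 4 groups, all from cells grown with 10% serum. SNB19 cells were transfected by Lipofectamine with a scramble siRNA (NC, n = 3) or with an siRNA to MEOX2 (siMEOX2, n = 3). U87 cells were transduced, in the presence of polybrene, with an empty-vector lentivirus (EV, n = 2) or a MEOX2 lentivirus (OE, n = 2). Both kinds of U87 cell were selected with puromycin. The titles of the OE libraries carry the same bracketed name, and their replicate numbers follow the name before it. Silencing was thus measured in SNB19 alone and overexpression in U87 alone, each group stands for 1 transfected or transduced line, and which MEOX2 siRNA was sequenced is not given in the sources used here. Nothing states that the replicates were separate cultures, so the p-values measure the spread between these samples, which may be technical.

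The respiratory chain passes electrons from NADH (complex I) and succinate (complex II) through ubiquinone and complex III to cytochrome c and then, at complex IV, to oxygen. Complexes I, III and IV pump protons across the inner mitochondrial membrane, and complex V, the ATP synthase, uses the returning protons to make ATP. Most subunits are encoded in the nucleus and assembled with a small set made from mitochondrial DNA, and complex II has nuclear subunits only. In cultured glioma cells the chain works beside a high rate of glycolysis.

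The libraries held 12533775 to 16560324 counts. MEOX2 itself had 249, 224 and 275 counts in NC and 54, 40 and 49 in siMEOX2, a log2 change of -2.42 (edgeR quasi-likelihood test, adjusted p = 9.1e-05). It had 0 counts in both EV libraries and 4999 and 5308 in OE, at least 1784-fold higher against a floor of 3 counts per library. Of 8 glial markers 5 passed 1 FPKM, led by VIM, while GFAP, S100B and AQP4 reached at most 0.397, 0.223 and 0.0212 FPKM in any library. The summed level of the 8 was 201 to 204 FPKM in NC and 108 to 112 in siMEOX2, and 253 to 695 in EV and 128 to 129 in OE. VIM made up most of each sum, at 160 to 163 FPKM in NC and 81.4 to 86.1 in siMEOX2. In U87, VIM had 687 and 241 FPKM in EV and 117 and 119 in OE. OLIG2 went the other way, with 1.134 to 1.171 FPKM in NC and 1.524 to 2.014 in siMEOX2. It had 1.606 and 1.401 FPKM in EV and 6.498 and 5.931 in OE. Of the 6 glial markers tested with all libraries, 5 had a negative log2 change in siMEOX2 and 4 in OE. The 5 epithelial markers summed to 50.2 to 77.0 FPKM in SNB19, led by KRT8 and KRT18, and to at most 1.48 in U87, the 4 endothelial markers to 1.01 to 6.08, and no immune marker passed 1 FPKM. The part of these shifts in the results below was not tested.

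One library has to be described before the results, because it stood apart in the respiratory chain genes and in other genes with short mRNAs. Respiratory chain genes took 1.74% of the counts in EV replicate 1, against 0.753% in EV replicate 2, 0.674% and 0.747% in OE, and 0.890% to 1.03% in the 6 SNB19 libraries. Ribosomal protein genes took 13.0% of its counts against 4.46% in EV replicate 2, and the count-weighted median mRNA length was 1962 bp against 3034 bp. Between the 2 EV libraries the chi-square per degree of freedom over genes was 280, while it lay between 2.06 and 6.56 in the other replicate pairs. The counts of calls in U87 are therefore given with and without EV replicate 1. Where no share over all genes stands beside a count of calls, the count describes the processing and not the chain.

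**Figure D1:**
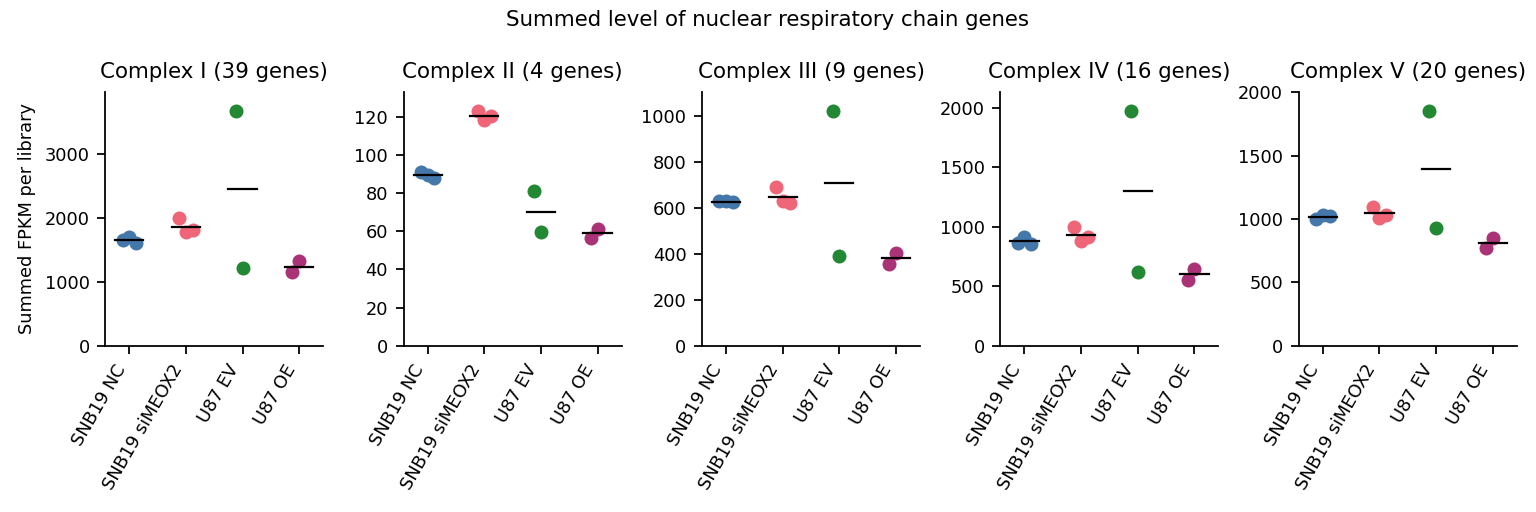
Summed FPKM (counts scaled by library total and union exon length, vertical axis from 0) of the genes of each complex, 1 point per library and a black line at the mean of each group (horizontal axis). EV replicate 1 summed to 3689 FPKM for complex I, above the 1163 to 2001 of the other 9 libraries, while complex II was highest in siMEOX2, at 118 to 123.

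The chain genes differed widely in level, given here as FPKM, counts scaled by library total and by the length of the gene's exons. In NC the mean FPKM had a median of 27.0 over the 88 genes, with 63 genes over 10 FPKM and 12 under 1. In the 3 U87 libraries other than EV replicate 1 the median was 24.2, with 64 genes over 10 and 13 under 1. The most abundant genes per length in NC were NDUFS5 of complex I (488 ± 3.14 FPKM, SD, n = 3), ATP5F1B, the catalytic beta subunit of complex V (426 ± 3.99), COX6B1 of complex IV (233 ± 11.7), UQCRH, the hinge protein of complex III (219 ± 1.85), and NDUFB7 of complex I (178 ± 11.1). Complex II stood lower per length, from SDHB (47.0 ± 1.75) to the membrane anchor SDHC (10.3 ± 0.348). SDHC has exons of 14160 bp, and its counts in NC (2391, 1952 and 2354) were above those of SDHB (1958, 1622 and 1719). These FPKM were computed by the authors over the union of all annotated exons, and for some genes that union is far longer than the main mRNA: 9851 bp against 1901 bp for NDUFA5. Scaling the same way by the length of the principal mRNA gave 490 for NDUFS5, 538 for ATP5F1B and 511 for UQCRH in NC, so the order of the most abundant genes depended on the length used.

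Several genes with low values lay in overlapping annotation. In 7 genes (NDUFA11, NDUFA13, NDUFA7, NDUFB8, NDUFV2, ATP5MF and ATP5PO) at least 40% of the principal mRNA was shared with another gene on the same strand, and their median FPKM over all libraries was 1.02 against 31.9 for the other 81. Whether the counting used strand is not given in the sources used here. A named pseudogene was annotated for 46 of the 88 genes, and the counts of UQCRH and its intronless copy UQCRHL may share reads.

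Tissue-restricted isoforms were at or near 0 except in 1 case. COX4I1, the common isoform of subunit 4, had 62.5, 64.6 and 62.2 FPKM in NC, while COX4I2, the lung-associated isoform, had 0 counts in 8 libraries and 3 and 1 counts in the others. COX8C had 1 and 2 counts in 2 libraries and 0 in the other 8, and ATP5MGL had 1 count in each of 2 libraries. COX7A1, the heart and muscle isoform, had 12, 9 and 16 counts in NC and 3 to 9 in the other groups, against 1549, 1336 and 1561 for COX7A2 in NC.

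COX7B2, the testis-associated relative of COX7B, was the exception (ENSG00000170516, GRCh38 chr4:46734827-46909235, minus strand). It had 258, 232 and 267 counts in NC, 314, 235 and 268 in siMEOX2, and 0 in all 4 U87 libraries. The lines did not overlap, and the gene was at least 77.6-fold higher in NC than in EV against the floor of 3 counts per library. The other testis-associated subunit, COX6B2, had 29, 17 and 26 counts in NC, 19, 20 and 20 in siMEOX2, 4 and 1 in EV, and 1 in each OE library. Its ratio of NC over EV was 9.5 with an exact 95% interval of 3.89 to 30.1 that covers counting error only, and against EV replicate 2 alone it was 22.1 (3.84 to 885). The broadly expressed COX7B and COX6B1 were measured in every library, at 25.2 FPKM or more and 115 FPKM or more.

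Promoter letters were read next, because the nuclear factors NRF1, the ETS factor GABPA, SP1 and YY1 are the textbook regulators of these genes. RefSeq windows (GRCh38.p14) of the 250 bases before the start were matched by symbol for 67 of the 88 genes. Both strands were searched, and matches of different motifs may overlap. The NRF1 letters, shown in capitals in the sequences below, were found in 14 of the 67 windows (20.9%) and in 5.53% of all 27303 windows, and the ETS letters CCGGAAG in 16 (23.9%) and 8.82%. The SP1 letters GGGCGG were found in 37 windows (55.2%) and in 42.3% of all, and the YY1 letters AAGATGGCG in 1 window, that of ATP5PF. The homeobox letters TAATTA were in none of the 67 windows and in 4.49% of all windows. The median GC content was 60.8% in the chain windows and 58.0% in all windows. A match is a description of letters and not of binding.

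For 7 of these 14 genes 1 NRF1 match each is shown with 10 bases on either side. The 7 passed a test below and were chosen after their values were seen, and others that passed, such as UQCRFS1, are not shown. They do not form a higher and a lower group, because SDHA, NDUFB4 and NDUFA12 were called in opposite directions in siMEOX2 and OE. UQCR11 and NDUFB4 hold 2 matches each. Capitals mark the NRF1 letters on either strand, and the number of bases before the start was 22 for ATP5F1C, 68 for SDHA, 110 for SDHD, 29 for UQCR11, 63 for NDUFB4, 116 for NDUFA12 and 47 for UQCRC1.
ATP5F1C, chr10:7788145-7788174, plus strand: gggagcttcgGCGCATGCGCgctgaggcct
SDHA, chr5:218242-218271, plus strand: ccggcgtggtGCGCAGGCGCggtatccccc
SDHD, chr11:112086753-112086782, plus strand: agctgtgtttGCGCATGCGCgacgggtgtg
UQCR11, chr19:1605472-1605501, minus strand: ccctccccgcGCGCGTGCGCgccgcggccg
NDUFB4, chr3:120596263-120596292, plus strand: ctctgctaacGCGCAGGCGCacttcctgaa
NDUFA12, chr12:95003794-95003823, minus strand: acctagctctGCGCACGCGCagagccacca
UQCRC1, chr3:48609674-48609703, minus strand: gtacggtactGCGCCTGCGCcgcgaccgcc

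SDHA held the most NRF1 matches of the 67 windows, 4 in all, each 49 bases from the next. The first 171 bases of its window, up to the outermost annotated start of the gene, hold the first 2 of them, in capitals, and show the repeat that carries them.
SDHA, chr5:218070-218240, plus strand: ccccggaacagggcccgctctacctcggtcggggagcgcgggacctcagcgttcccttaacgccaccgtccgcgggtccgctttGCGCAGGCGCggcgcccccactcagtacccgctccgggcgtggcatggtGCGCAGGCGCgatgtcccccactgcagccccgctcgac

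The first comparison asked which chain genes changed when MEOX2 was silenced in SNB19. In the fit over all 10 libraries 2 genes rose, among them NDUFA4L2, and 1 fell, ATP5F1C, of the 85 tested. Over all 17312 genes 6.99% were called higher and 8.75% lower at an adjusted p under 0.05 (edgeR quasi-likelihood test, Benjamini-Hochberg). The median log2 change of the chain genes was 0.07 against -0.0013 for all genes. By level alone, all siMEOX2 libraries lay above all NC libraries for 27 of the 85 genes and below them for 13, against 27.6% and 29.4% of all genes. In bulk RNA a change in the RNA of each cell and a change in the share of a kind of cell cannot be told apart.

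NDUFA4L2 is a relative of NDUFA4 that is known as a target of hypoxia-inducible factor (ENSG00000185633, GRCh38 chr12:57234903-57240715, minus strand). It was a low gene, with 1.85, 2.29 and 1.58 CPM (counts scaled by library total and TMM factor) in NC and 4.99, 5.74 and 5.70 in siMEOX2, from 26 to 33 and from 86 to 93 counts. The groups did not overlap. The log2 change was 1.52 (SE 0.26, edgeR adjusted p = 0.00562), a 2.87-fold rise. NDUFA4 itself, which is carried in complex IV despite its name, had 126, 124 and 119 CPM in NC and 127, 109 and 117 in siMEOX2, and those groups overlapped.

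ATP5F1C encodes the gamma subunit, the central rotor shaft of the ATP synthase (ENSG00000165629, GRCh38 chr10:7788129-7807815, plus strand). It had 117, 119.5 and 121 CPM in NC and 52.7, 44.6 and 46.1 in siMEOX2. Every silenced library was below every control. The log2 change was -1.32 (SE 0.22, edgeR adjusted p = 0.00500), a 2.49-fold fall. The alpha and beta subunits of the same F1 head, ATP5F1A and ATP5F1B, had log2 changes of 0.06 and -0.11 and did not pass.

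The number of calls depended on whether the U87 libraries entered the fit. With EV replicate 1 in the fit the common biological coefficient of variation was 0.216, and without it 0.0576. When the 6 SNB19 libraries were fitted alone, 29 chain genes rose and 12 fell of 84 tested, against 27.4% higher and 28.5% lower over all genes. With EV replicate 1 left out of the joint fit 24 rose and 11 fell (background 22.5% and 24.6%), and all 35 of these calls were among the 41 of the SNB19 fit in the same direction. Leaving out EV replicate 2 instead gave 27 higher and 11 lower. Removing the trend of counts on gene length changed the split to 20 higher and 18 lower in the SNB19 fit (28.9% and 29.2% of all genes, 58.1% in either direction), of which 32 calls were shared. The SNB19 fit is used in the next paragraphs, and all but 3 of its calls were lost in the fit over all 10 libraries.

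Complex II was the complex in which every member rose in the SNB19 fit, where 27.4% of all genes were called higher. The flavoprotein SDHA had 152, 143 and 146 CPM in NC and 182, 173 and 170.4 in siMEOX2. The iron-sulfur subunit SDHB had 113, 112 and 104 in NC and 151, 143 and 143 in siMEOX2. The membrane anchors SDHC and SDHD had 135 to 143 and 36.5 to 37.1 CPM in NC and 157 to 171 and 41.8 to 47.9 in siMEOX2. In none of the 4 genes did the groups overlap. The log2 changes were 0.27 (SE 0.05) for SDHA, 0.42 (SE 0.05) for SDHB, 0.27 (SE 0.05) for SDHC and 0.29 (SE 0.07) for SDHD, with edgeR adjusted p from 1.03e-06 to 0.00154. All 4 also passed when the length trend was removed, with a median log2 change of 0.31. In the fit over all 10 libraries their adjusted p values lay between 0.126 and 0.303.

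Complex I held calls in both directions. In the SNB19 fit 12 of its 39 genes rose and 6 fell, against 27.4% and 28.5% of all genes. The 12 include NDUFA4L2, which is named for complex I but listed as found in complex IV. Of the 10 genes of the NADH-oxidising N module 2 rose and 1 fell, of the 10 of the proximal membrane arm 4 rose and 1 fell, and of the 12 of the distal membrane arm 4 rose and 3 fell. The acyl carrier protein NDUFAB1 rose (log2 0.41, SE 0.06, edgeR adjusted p = 4.85e-06), as did the membrane-arm subunits NDUFB5 (0.45, SE 0.07) and NDUFA1 (0.35, SE 0.06). NDUFB1 (-0.40, SE 0.08), NDUFS8, an iron-sulfur subunit (-0.38, SE 0.07), and NDUFB10 (-0.29, SE 0.07) fell. NDUFC2 fell and NDUFB8 rose as well, but on few reads, with 66, 51 and 62 counts in NC and 36, 36 and 40 in siMEOX2 for the first and 12, 18 and 22 against 28, 28 and 39 for the second.

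Complexes III, IV and V held calls in both directions in the SNB19 fit, where 27.4% of all genes rose and 28.5% fell. The complex III core proteins fell together, UQCRC1 from 488, 494 and 466 CPM in NC to 406, 384 and 354 in siMEOX2 and UQCRC2 by 0.29 on the log2 scale. UQCR10 and the Rieske protein UQCRFS1 rose by 0.23 and 0.15, but the groups overlapped in CPM for UQCRFS1. In complex IV, COX6A1 rose by 0.57 (SE 0.11), the supercomplex factor COX7A2L by 0.28 (SE 0.06) and COX4I1 by 0.14 (SE 0.05). COX6B1 fell by 0.21 (SE 0.07), but its groups overlapped in CPM. In complex V, 3 of 4 genes of the peripheral stalk rose, led by ATP5PB (182 ± 2.03 to 237 ± 14.8 CPM, SD, n = 3 each) and 2 of the 5 genes of the F1 head fell. Beside ATP5F1C, ATP5F1E, the epsilon subunit next to gamma in the central shaft, fell by 0.40 on the log2 scale (SE 0.05, edgeR adjusted p = 3.07e-06).

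**Figure D2:**
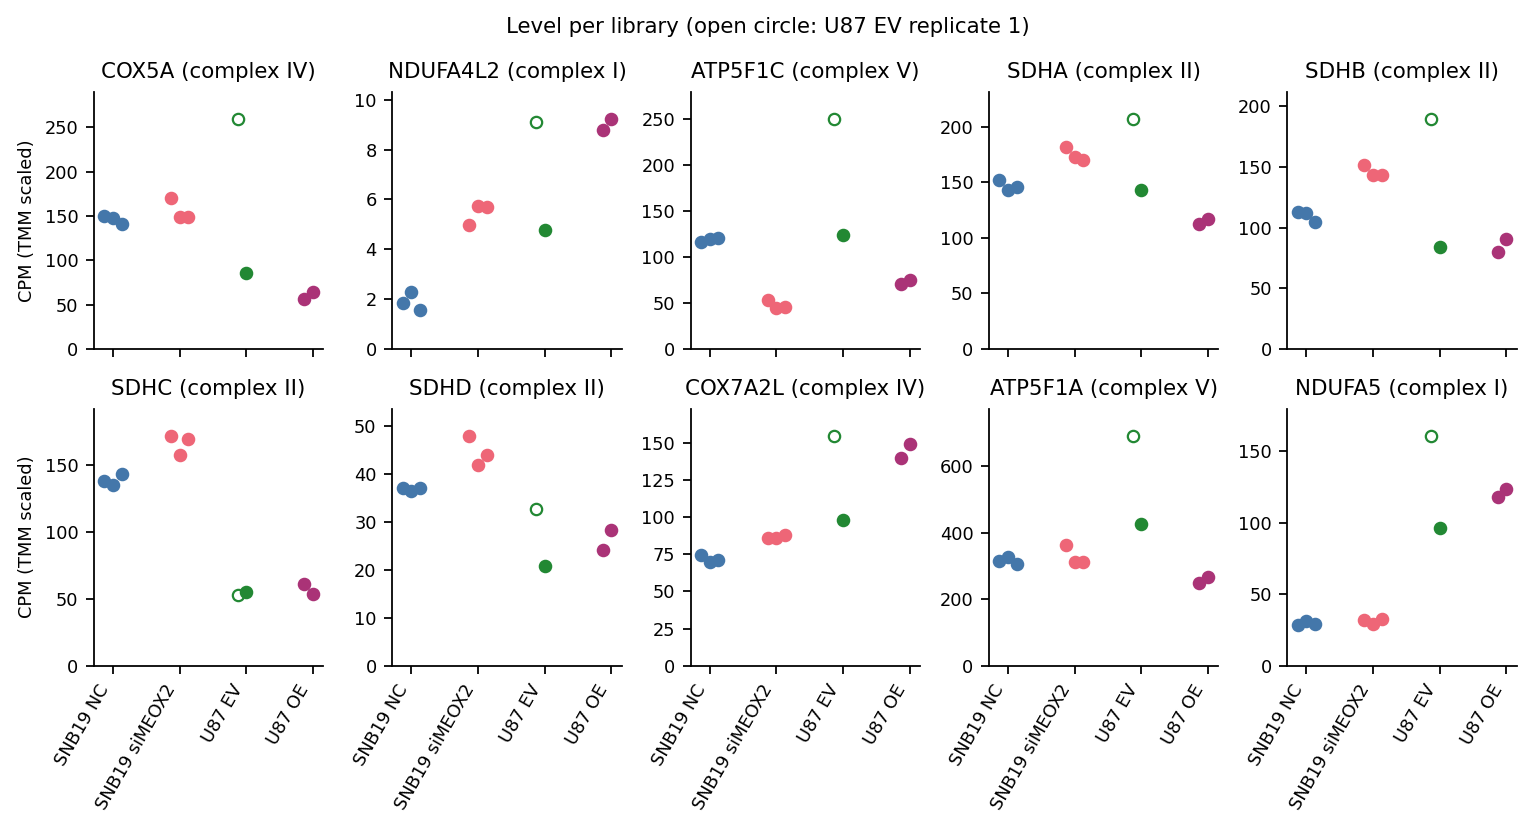
Level of 10 chain genes in each library, in CPM scaled by TMM factors (vertical axes from 0), by group (horizontal axis); each point is 1 library and the open circle is EV replicate 1. ATP5F1C lay at 44.6 to 52.7 CPM in siMEOX2 and 71.1 to 75.3 in OE, below the 117 CPM or more of every control library.

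The second comparison asked which chain genes changed when MEOX2 was overexpressed in U87. With both EV libraries, 24 of 85 genes fell and 0 rose, against 14.9% lower and 11.3% higher over all genes, and the median log2 change was -1.12 against -0.02 for all genes. At an unadjusted p under 0.05 the same edgeR test gave 2 genes higher, and DESeq2 called 1 higher. With the length trend removed 22 fell and 4 rose (17.3% and 15.8% of all genes). The direction depended on EV replicate 1. Without that library 14 genes rose and 8 fell (background 20.4% and 18.4%), with a median of 0.04, and only 8 calls were shared with the first fit. Without EV replicate 2 instead, 70 genes fell and 2 rose. Leaving out any one of the other 8 libraries, SNB19 libraries included, left 0 to 6 genes lower and 0 higher. When the 4 U87 libraries were fitted alone with edgeR, 0 genes fell, with 4 lower at an unadjusted p under 0.05, and 0.0% of all genes were called.

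The 2 EV libraries differed in nearly the whole chain. EV replicate 1 was higher than EV replicate 2 for 80 of the 84 genes with counts in both, with a median log2 ratio of 1.74 against 0.01 over 15574 genes. The ratio was 7.49 for ATP5PO, 6.59 for ATP5F1D, the delta subunit, and 6.14 for NDUFB7. SDHC (0.954), NDUFS1 (0.752), NDUFV2 (0.917) and NDUFA13 (0.298) were not higher. Across the 84 genes Spearman's rho of the log2 ratio with principal mRNA length was -0.51, a description over genes that share 2 libraries. The principal mRNA of the chain genes had a median length of 897 bp against 2742 bp for all protein-coding genes. Genes outside the chain with an mRNA of up to 1000 bp had a median log2 change of -0.95 in OE against EV, and the chain genes in that range -1.26. With the trend removed the same medians were -0.43 and -0.74.

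**Figure D3:**
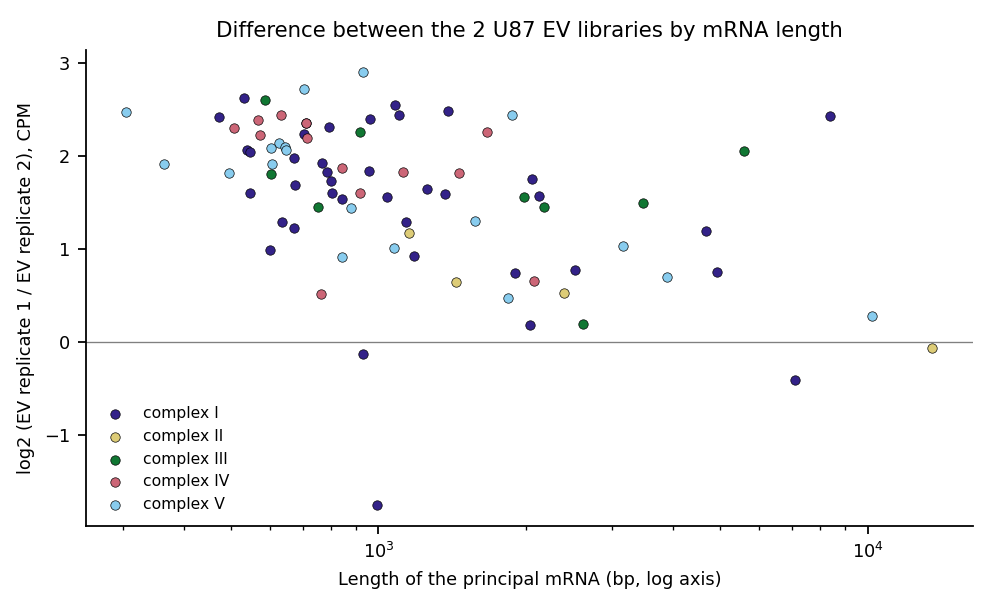
Log2 ratio of EV replicate 1 over EV replicate 2 in CPM (vertical axis) against the length of the principal mRNA in bp (horizontal axis, log scale), 1 point for each of 84 genes, coloured by complex. Of the 84 points 80 lie above 0, with a median of 1.74, and the points of the longest mRNAs lie mostly lower.

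Without EV replicate 1 the EV group is a single library, whose variation is assumed to be like that of the other groups, and the following values hold on that condition. ATP5F1C had 250.1 and 124 CPM in EV and 71.1 and 75.3 in OE. Both OE libraries were below both EV libraries. The log2 change was -1.35 (SE 0.27, edgeR adjusted p = 0.00776) with both EV libraries and -0.71 (SE 0.10, adjusted p = 7.59e-07) without the first. ATP5F1A, the alpha subunit, had 690.1 and 425 CPM in EV and 249 and 267 in OE, with log2 changes of -1.11 (SE 0.21, edgeR adjusted p = 0.00627) and -0.68 (SE 0.09, adjusted p = 4.06e-07). ATP5F1B had 1319 and 948 CPM in EV and 686 and 719 in OE, and fell by 0.69 and 0.39 on the log2 scale in the 2 fits. These 3 genes of the F1 head were thus lower in OE with either choice of EV libraries.

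The other genes called lower in both fits were ATP5MC3, a ring subunit of complex V (-1.09 with both EV libraries and -0.51 without the first), COX5A of complex IV (-1.52 and -0.46), SDHA (-0.61 and -0.28), and NDUFB6 and NDUFV1 of complex I (-1.37 and -0.32, and -1.44 and -0.27). COX5A had 259 and 85.0 CPM in EV and 55.9 and 63.6 in OE, so that the groups did not overlap.

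The 14 genes that rose without EV replicate 1 had EV replicate 2 as their only control. In 12 of them EV replicate 1 lay above at least 1 OE library, and with both EV libraries 10 of the 14 had a negative log2 change. UQCR11, a small subunit of complex III, had 17.4 CPM in EV replicate 2 and 28.2 and 31.6 in OE (log2 0.83, SE 0.15, edgeR adjusted p = 5.14e-05), but 47.6 in EV replicate 1. COX7A2L had 98.3 and then 139 and 149 CPM (0.60, SE 0.09), and 154 in EV replicate 1. NDUFA4L2 had 4.79 and then 8.79 and 9.21 CPM (0.95, SE 0.25), and 9.09 in EV replicate 1. NDUFB4 of the distal membrane arm and NDUFA12 of the N module rose by 0.47 and 0.44, but their log2 changes were -0.31 and -0.40 with both EV libraries. ATP5S, named as a coupling factor, had 14.1 and 11.6 CPM in EV and 19.0 and 16.2 in OE and rose by 0.64. The groups overlapped in UQCR11, COX7A2L, NDUFA4L2, NDUFB4 and NDUFA12 and did not in ATP5S.

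**Figure D4:**
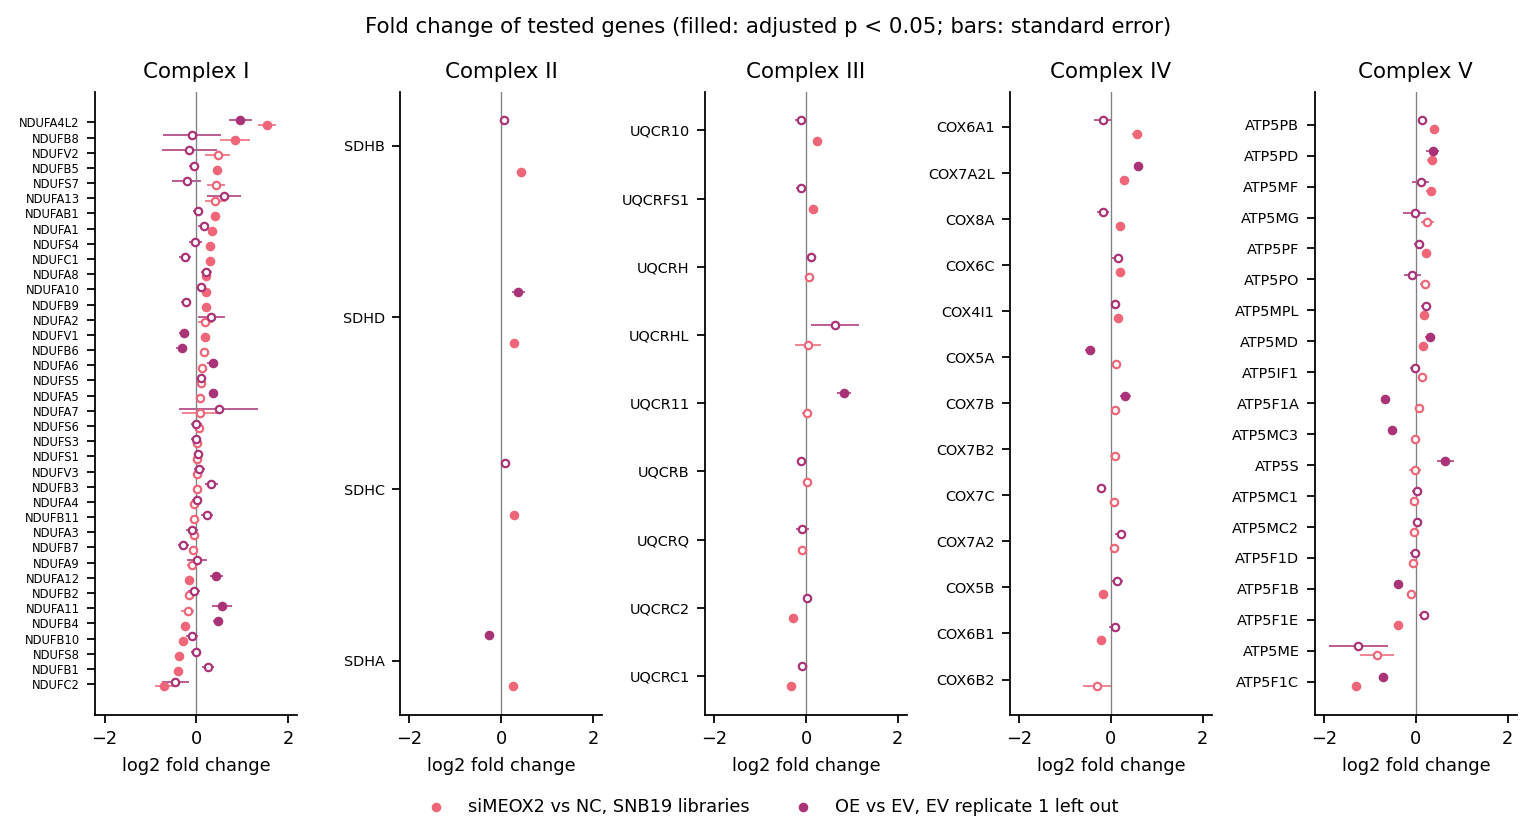
Log2 fold change (horizontal axes) of tested genes (vertical axes) for siMEOX2 over NC in the fit of the SNB19 libraries and for OE over EV in the fit without EV replicate 1, by complex; filled points passed an adjusted p of 0.05 and bars are standard errors. Genes with 3 counts or fewer in each U87 library compared have no OE point; NDUFA4L2 lies to the right in both comparisons (1.54 and 0.95) and ATP5F1C to the left in both (-1.30 and -0.71).

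Silencing and overexpression share no library, so their calls can be set side by side. In the SNB19 fit and the U87 comparison without EV replicate 1, 11 of 84 chain genes were called in both. The direction was the same in 7 of the 11, among them NDUFA4L2, SDHD, COX7A2L, ATP5PD and ATP5MD, higher in both, and ATP5F1C, lower in both. The higher calls in OE held only without EV replicate 1, which had 32.6 CPM for SDHD, 184 for ATP5PD and 322 for ATP5MD, above the 24.2 and 28.2, 48.9 and 59.5, and 79.1 and 95.7 of the OE libraries. It was opposite in SDHA and NDUFV1, which were higher in siMEOX2 and lower in OE, and in NDUFB4 and NDUFA12, which were lower in siMEOX2 and higher in OE. Over all genes tested in both fits, 4212 of 15525 were called in both (27.1%, against 13.1% of the chain genes), and 65.3% of them had the same direction.

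The difference of the 2 effects was tested directly, as the siMEOX2 effect minus the OE effect. With all libraries 3 chain genes passed, among them SDHA and ATP5F1A, against 15.7% of all genes (8.36% positive and 7.33% negative), all with a positive difference, and leaving out any one library other than the EV libraries left 0 or 1. After EV replicate 1 was left out, 15 were positive and 11 negative, against 16.1% and 19.4% of all genes. The largest were ATP5F1A (0.74, SE 0.11, edgeR adjusted p = 2.77e-06) and COX6A1 (0.74, SE 0.23) on the positive side and UQCR11 (-0.82, SE 0.19) and NDUFA11 (-0.76, SE 0.26), which lies in overlapping annotation, on the negative side. ATP5F1C, lower in both lines, differed by -0.60 (SE 0.12).

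The third comparison set the control groups of the lines side by side. Cell line, vector and method of delivery differ together between them and cannot be told apart. With both EV libraries 41 of 85 chain genes were higher in U87 EV than in SNB19 NC and 4 lower, against 28.8% and 28.1% of all genes (56.9% in either direction). When EV replicate 1 was left out, 21 were higher and 29 lower (background 30.9% and 32.5%), and with the length trend also removed 30 and 23 (34.7% and 30.1%). Removing the trend with both EV libraries gave 43 and 7 (34.3% and 27.6%). Leaving out any one NC library left 26 or 27 genes higher, and leaving out EV replicate 2 gave 72. The calls shared between the first 2 fits numbered 25, and no gene was called in opposite directions. The signs of the log2 changes went from 73 positive and 12 negative with both EV libraries to 34 and 51 without the first, and 21 of the 29 genes then called lower had been positive. The genes below were called without EV replicate 1, and most of the lower ones are lower only against EV replicate 2.

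NDUFA5, a subunit of the quinone module, had 28.7 to 31.3 CPM in NC and 161 and 96.4 in EV, with 118 and 124 in OE, so every U87 library was above every SNB19 library. It was 3.27-fold higher in EV replicate 2 (log2 1.71, SE 0.09, edgeR adjusted p = 1.6e-15). NDUFB2 had 27.9, 31.5 and 27.1 CPM in NC and 364 and 67.0 in EV, a 2.34-fold difference without the first library. NDUFA4L2 was 2.54-fold higher. SDHC was lower in U87, with 138, 135 and 143 CPM in NC, 52.9 and 55.4 in EV and 60.8 and 53.8 in OE, with a ratio of 0.954 between the 2 EV libraries. Its log2 change was -1.36 with both and -1.32 without the first (edgeR adjusted p = 1.65e-05 and 7.34e-13).

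In complex II, SDHB (-0.38), SDHC and SDHD (-0.82) were lower in U87, SDHA had a log2 difference of -0.03, and the median was -0.60. With both EV libraries SDHB had 0.31 and SDHD -0.47. In complex III, UQCRQ (-0.83), UQCRH (-0.69) and UQCRC1 (-0.68) were lower and UQCR11 (0.56) and UQCRB (0.30) higher, while with both EV libraries all 9 genes of complex III were positive, UQCRQ at 0.98, UQCRH at 0.48 and UQCRC1 at 0.30. In complex IV, COX6B1 (-0.79) and COX5A (-0.77) were lower and COX6C (0.57) and COX7A2L (0.46) higher, beside the lower COX7B2 and COX6B2, and with both EV libraries COX6B1 had 0.84 and COX5A 0.23. In complex V, ATP5MPL (0.73) and ATP5MC2 (0.60) were higher, and ATP5MD (-0.50) and the inhibitor ATP5IF1 (-0.34) lower. With both EV libraries ATP5MD and ATP5IF1 had 0.92 and 0.82, and all 19 tested genes of the complex were positive. In complex I, NDUFA12 (-1.38), NDUFB10 (-1.16) and NDUFS5 (-1.002) were the furthest down, at -0.61, 0.34 and 0.35 with both EV libraries. NDUFB10 had 89.3 to 97.9 CPM in NC and 42.2 in EV replicate 2 but 198 in EV replicate 1.

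**Figure D5:**
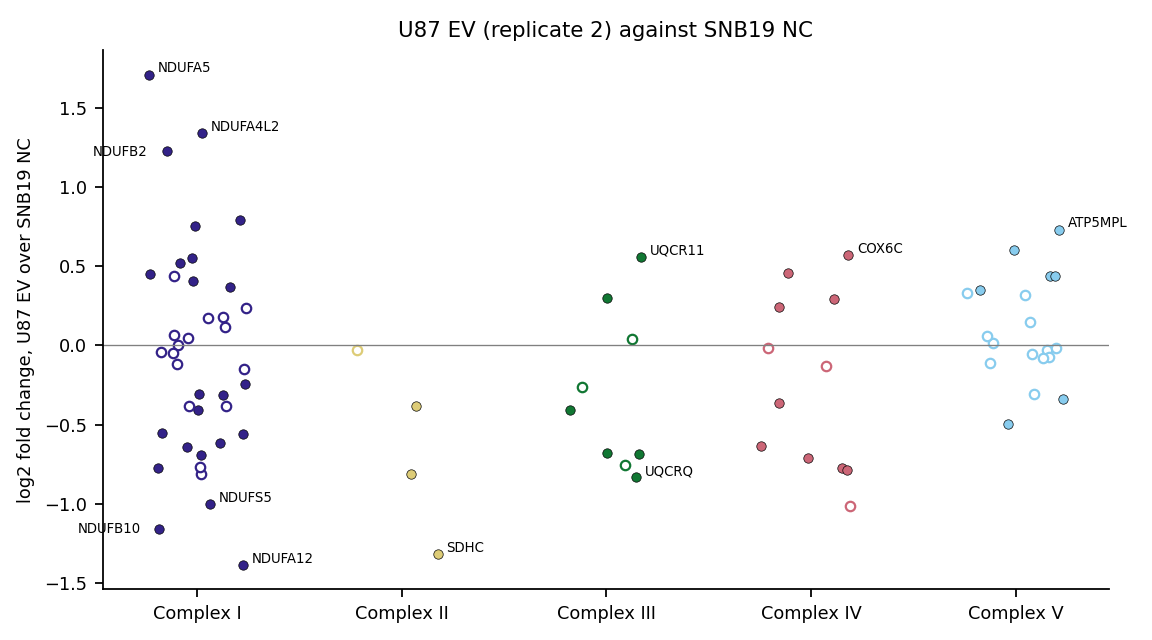
Log2 fold change of U87 EV replicate 2 over SNB19 NC (vertical axis), 1 point per tested gene in columns by complex with random horizontal scatter; filled points passed an adjusted p of 0.05. COX7B2 and COX6B2, with 3 counts or fewer in EV replicate 2, are not drawn; NDUFA5 lies highest at 1.71 and NDUFA12 lowest at -1.38.

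Genes that build or serve the chain were counted for the same comparisons. Of 51 assembly factors 48 were tested in the SNB19 fit, where 16 rose and 9 fell, against 27.4% and 28.5% of all genes, and in the fit over all libraries 6 of 49 rose and 1 fell (6.99% and 8.75%). SDHAF3, which matures SDHB, rose by 1.23 on the log2 scale (SE 0.16) and LYRM7, an assembly factor for the Rieske protein, by 1.03 (SE 0.08). Both also passed with all libraries (edgeR adjusted p = 0.00564 and 0.00226). NDUFAF3, which also serves complex I, fell by 0.79 (SE 0.06) in the SNB19 fit and by 0.80 without EV replicate 1. With all libraries its change of -0.81 did not pass (edgeR adjusted p = 0.0853). In OE with both EV libraries, 3 of 49 rose and 7 fell (11.3% and 14.9% of all genes), with a negative log2 change in 41 and a median of -0.50. Without EV replicate 1, 12 of 50 rose and 6 fell (background 20.4% and 18.4%), led by NDUFAF4, a complex I factor (1.07, SE 0.14), which had 101 and 27.5 CPM in EV and 50.6 and 61.1 in OE. Of 5 genes of the cytochrome c group 3 rose in the SNB19 fit, against 27.4% of all genes. Among them was CYCS, cytochrome c itself, by 0.49 (SE 0.05) in siMEOX2, and by 0.77 (SE 0.09) in OE without EV replicate 1. Those calls were lost with all libraries, where CYCS had an edgeR adjusted p of 0.157 in siMEOX2 and 0.636 in OE, and its 495 CPM in EV replicate 1 lay above the 401 and 446 of OE.

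The subunits made from mitochondrial DNA were tested in the same fits. In OE, 5 of 13 fell with both EV libraries (14.9% of all genes), and without the first all 13 had a negative log2 change. MT-ND5 changed by -0.80 (SE 0.08), MT-CO3 by -0.71 (SE 0.09) and MT-ATP6 by -0.66 (SE 0.08) in that fit. MT-CO3 and MT-ATP6 also fell with both EV libraries, and MT-ND5 did not pass there (-0.44, edgeR adjusted p = 0.247), with 721 and 1411 CPM in EV and 845 and 727 in OE. In siMEOX2, 5 of 12 fell and 2 rose in the SNB19 fit (28.5% and 27.4% of all genes), with a median of -0.05. With the length trend removed 9 fell and 1 rose (29.2% and 28.9% of all genes). Mitochondrial genes took 2.27% and 2.37% of counts in OE, 2.97% and 3.03% in EV, and 3.26% to 3.57% in SNB19. The libraries were made from polyadenylated RNA, on which the counts of these genes depend.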

How the data were processed

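RNA of 10 libraries (4 groups) was sequenced as 150 bp paired reads after poly-A selection. The submitters' processing notes name HISAT2, HTSeq 0.11.2, DESeq2 1.26.0 and the GRCh38 build. The authors deposited raw read counts per gene, not normalized, and FPKM, which the authors computed from gene counts, scaled by their total and by union exon length; these lengths equal those of GENCODE 29 within 1 bp for 99.8% of genes. The strand setting of the counting is not given in the sources used here, and 0 sample columns were unused. The deposited fold changes and p-values were not used.

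Counts were fitted in R 4.3.3 with edgeR 4.0.16 (TMM factors, filterByExpr, quasi-likelihood test) over all 10 libraries and 4 groups, with Benjamini-Hochberg adjustment over all 17312 genes and a threshold of 0.05. Folds, SE and adjusted p come from this fit unless another is stated. The others read most were the SNB19 libraries alone (15525 genes) and the joint fit without EV replicate 1 (18318 genes). DESeq2 1.42.0, limma 3.58.1 on log2(FPKM + 1) and log2(FPKM + 0.1), other normalization, no filter, fits of the compared groups alone, a replicate block, removal of a trend of counts on mRNA length, and leaving out each library were alternatives. The fits without EV replicate 1 that also change another choice, the SNB19 fit with the length trend removed and the crossed block were chosen after seeing the data. The scripts were tested on simulated data.

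The genes and lists were chosen with earlier results of these data known. Genes named were, per comparison, up to 4 per complex with the largest change past the threshold and no overlap between groups, with the complex II genes, tissue isoforms, the highest and lowest gene per complex, MEOX2, and up to 3 per related list; others named were chosen after their values were seen, and results for some genes are not reported here. Same-numbered SNB19 libraries did not deviate together (r of -0.09, -0.15 and 0.19), so the numbers were not taken as pairs. Intervals and floors cover counting error only. A floor of 3 counts per library was used for groups at 0.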

Additional observations from a re-analysis of the deposited data

Results flagged for a closer look

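The effects of silencing in SNB19 and of overexpression in U87 differed for SDHA and ATP5F1A by the direct test of the difference (siMEOX2 effect minus OE effect, log2 scale, edgeR quasi-likelihood test with Benjamini-Hochberg adjustment). ATP5F1A, the alpha subunit of ATP synthase, differed by 1.17 (SE 0.274, adjusted p = 0.022), with a change of 0.06 in siMEOX2 and -1.11 in OE. SDHA, the flavoprotein of complex II, differed by 0.863 (SE 0.22, adjusted p = 0.0303), with 0.25 and -0.61. Without EV replicate 1, which held more short mRNAs than the other libraries, the differences were 0.74 and 0.53 and both still passed. Leaving out any one of the other libraries except EV replicate 2 gave adjusted p from 0.049 to 0.103 for ATP5F1A and from 0.0666 to 0.127 for SDHA, and the replicate block gave 0.0918 and 0.11, so SDHA passed in none of those fits. The cell line and the direction of the MEOX2 change differ together and cannot be told apart.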

How the results depend on the processing

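Counts of respiratory chain genes are given as higher and lower. A count with no share over all genes, here or in the Results, describes the processing and not the chain. The fold rule asks for over 1 on the log2 scale in either direction and an unadjusted p under 0.05. For siMEOX2 against NC (2 and 1), the fold rule gave 1 and 1 (5.39% and 5.25% of all genes). DESeq2 gave 3 and 2, limma 5 and 2 with either pseudocount, and the length trend removed 3 and 2 (10.8% and 13.2%). The SNB19 groups alone gave 29 and 12 (20 and 18 with the trend removed). RLE factors without EV replicate 1 gave 25 and 11, DESeq2 21 and 10, and trend removal 16 and 21; leaving out 1 library gave 2 to 27 and 1 to 11. For OE against EV (0 and 24), the fold rule gave 1 and 48 (8.58% and 14.3% of all genes). DESeq2 gave 1 and 45, no filter 0 and 54, the U87 groups alone 0 and 0 and the trend removed 4 and 22. Limma gave 4 and 8 (pseudocount 1) or 2 and 8 (0.1). With EV replicate 1 left out, RLE gave 14 and 10, DESeq2 10 and 8, trend removal 15 and 10; leaving out 1 library gave 0 to 14 and 0 to 70. For U87 EV against SNB19 NC (41 and 4), the groups alone gave 13 and 4, limma 18 and 7 or 17 and 7, and the trend removed 43 and 7. Without EV replicate 1, RLE gave 21 and 30, DESeq2 20 and 29, trend removal 30 and 23; leaving out 1 library gave 21 to 72 and 4 to 29. For the difference of effects (3), DESeq2 gave 20, no filter 47, the trend removed 10, and without EV replicate 1 RLE gave 29, DESeq2 25 and trend removal 32; leaving out 1 library gave 0 to 75.

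With the replicate number as a block, silencing gave 2 and 1, overexpression 0 and 2, and the difference 0 (13 at an unadjusted p under 0.05, edgeR). In U87 the same-number correlation was -0.44, and crossing the U87 numbers in the block gave 7 lower in OE and 1 for the difference.

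NDUFA4L2 and ATP5F1C kept their direction and passed the threshold for silencing in all 23 alternatives. In U87 EV against SNB19 NC, leaving out EV replicate 1 turned 39 of 85 genes from positive to negative, 9 of them called higher before and 21 called lower after. Of the named genes called with both EV libraries 6 turned, given in turn for edgeR, with RLE and with DESeq2: ATP5F1E -0.0295, -0.0300 and -0.0339, ATP5PF -0.0528, -0.0532 and -0.0572, COX6A1 -0.0192, -0.0196 and -0.0251, COX7C -0.132, -0.133 and -0.136, NDUFA11 -0.0414, -0.0419 and -0.0439, and UQCR10 -0.261, -0.261 and -0.265 (-0.0737 with the trend removed). Leaving out EV replicate 2 instead gave 2.44, 2.04, 2.22, 1.72, 2.04 and 2.01 for these genes in the same order. Why EV replicate 1 differs was not tested. With 2 libraries a group in U87, and 1 in EV once it is left out, the U87 calls rest on little replication.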

Other observations

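Beyond the chain, genes of the tricarboxylic acid cycle, which feeds it, held calls in both directions. In the SNB19 fit of siMEOX2 against NC 6 of 14 rose and 3 fell, against 27.4% and 28.5% of all genes. FH, fumarase, fell by 0.80 on the log2 scale (SE 0.06) and OGDH, of the oxoglutarate dehydrogenase complex, fell by 0.47 (SE 0.05). FH and OGDH also passed with all libraries (edgeR adjusted p = 0.0291 and 0.0236). CS, citrate synthase, went the other way and rose by 0.36 with all libraries (SE 0.096, edgeR adjusted p = 0.0326). In OE against EV, IDH2, the NADP-dependent mitochondrial isocitrate dehydrogenase, fell by 2.24 (SE 0.18, edgeR adjusted p = 9.76e-05) with both EV libraries and by 1.94 (SE 0.12) without the first, where DLST rose by 0.56 (SE 0.08) and IDH3A by 0.71 (SE 0.12). DLST also passed with both EV libraries (adjusted p = 0.00857) and IDH3A did not (0.0759). SUCLG1 fell by 1.09 with both EV libraries (SE 0.32, edgeR adjusted p = 0.0328). It had 181 and 77.8 CPM in EV and 56.6 and 64.8 in OE.

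Of 78 mitochondrial ribosomal protein genes 31 rose and 14 fell in the SNB19 fit, against 27.4% and 28.5% of all genes. In the fit over all libraries 2 rose, where 6.99% of all genes were called higher. The SNB19 calls included MRPL24 (0.71, SE 0.06) and MRPL53 (-0.74, SE 0.29). In OE 2 rose and 17 fell with both EV libraries (background 11.3% and 14.9%), and 23 rose and 9 fell without the first (20.4% and 18.4%), led by MRPS35 (1.06, SE 0.10) and MRPS31 (1.03, SE 0.16). MRPS35 had 101 and 64.3 CPM in EV and 125 and 135 in OE and passed with both EV libraries, while MRPS31 had 34.1 and 15.9 in EV and 27.5 and 35.4 in OE and did not. Of 18 regulators of mitochondrial biogenesis 7 rose and 4 fell in the SNB19 fit (27.4% and 28.5% of all genes). Over all libraries 2 rose and 1 fell (6.99% and 8.75%). In the SNB19 fit PPARGC1B, a coactivator, had 0.77 (SE 0.08), MTERF1 -0.75 (SE 0.13) and HCFC1 -0.61 (SE 0.05). Of these MTERF1 passed over all libraries (edgeR adjusted p = 0.00719). In OE, PPARGC1A, a coactivator, GABPB1, a partner of the ETS factor GABPA, and TFB2M, a mitochondrial transcription factor, rose with both EV libraries. Their log2 changes were 0.99, 0.73 and 0.68, and without the first EV library 0.83, 0.90 and 0.79. POLRMT of the same list fell with both EV libraries (-0.65, SE 0.16, edgeR adjusted p = 0.018). It had 228 and 171.5 CPM in EV and 120.4 and 134.4 in OE. TFB1M had -0.66 and did not pass, so the list held changes in both directions.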
